A study of Homo sapiens with 12 samples.

Results

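The kinesin motor genes were taken as all symbols made of KIF and a number, with or without a closing letter, and 38 of the 22784 symbols in the table met this rule. The 2 antisense RNA symbols with a KIF name were left out. By the known roles of the proteins, 13 members were grouped as mitotic kinesins, 15 as transport kinesins and 10 as cilium and other kinesins, and KIF2B, also a mitotic kinesin, was not analysed here.

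RNA-seq was performed in SK-UT-1 cells, an established human uterine leiomyosarcoma (uLMS) line, so all groups share the background of a single line. Cells received DMSO (labelled VEH), JQ1 at 5 µM or I-BET 762 at 5 µM for 48 h, the time being given for the inhibitors in the labels and for all 3 groups in the study's text. JQ1 and I-BET 762 are BET inhibitors, which compete with acetylated histone tails for the bromodomains of the BET proteins and so release these proteins from chromatin. The 10 libraries analysed were 3 of DMSO, 4 of JQ1 and 3 of I-BET 762, and the fourth labelled DMSO and I-BET 762 libraries were not analysed here.

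Kinesins are motor proteins that turn ATP hydrolysis into movement along microtubules. Mitotic kinesins build the spindle, move chromosomes and complete cytokinesis, and many of their genes are transcribed mainly in G2 and M phase, so that their RNA is abundant in dividing cells. Transport kinesins carry vesicles, mitochondria and RNA towards the cell periphery, usually as dimers of heavy chains with light chains or adaptors that bind the cargo, and others work in or near the primary cilium, where Hedgehog signals are relayed.

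The libraries held between 35564586 and 39658989 reads on genes, recovered from the deposited values. Normalized totals averaged higher with JQ1 than with DMSO, and setting all totals equal lowered the median log2 fold change of all genes tested from 0.01 to -0.18 for JQ1 and from -0.00 to -0.10 for I-BET 762. JQ1 18 stood apart from the other JQ1 libraries in the mitotic kinesins: it was the highest JQ1 library for 10 of the 13, against 36.7% of all genes tested. Of the smooth muscle markers, ACTA2, CALD1, SMTN and TAGLN were abundant in DMSO, and ACTA2 ranged from 6899 to 7326 normalized counts. DES and CNN1 were present at lower levels, whereas ACTG2 and MYOCD were at or under 1.94 normalized counts in every library. MYH11, a further listed marker, was not analysed here. Of the 6 markers tested, 5 fell with each inhibitor, where 22.8% of all genes tested fell with JQ1 and 17.9% with I-BET 762. With JQ1 the log2 fold changes of these 5 ran from -4.63 (DES) to -0.92 (CALD1), and SMTN was higher by less than 1.5-fold, at 0.19. The part of the marker falls in the kinesin results was not tested. The labels do not say that the libraries came from separate cultures, so the p-values measure the spread between these libraries, which may be technical. In bulk RNA, a smaller share of cells in a phase and less RNA per cell cannot be told apart.

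Of the 38 members, 35 passed the filter of at least 10 normalized counts in at least 3 libraries. A gene was called when its adjusted p was under 0.05 over all 14839 genes tested and its change was over 1.5-fold in limma. With JQ1, 5 members rose and 10 fell, where 13.3% of all genes tested rose and 22.8% fell. With I-BET 762, 3 members rose and 6 fell, where 8.96% of all genes rose and 17.9% fell. KIF3A, KIF5C and KIF27 rose with both inhibitors, and KIF3C, KIF5A, KIF16B, KIF17 and KIF12 fell with both. The 2 comparisons share their DMSO libraries. By adjusted p alone, 27 members differed with JQ1 and 25 with I-BET 762, against 71.7% and 61.1% of all genes. Over the 35 members the median log2 fold change came to -0.08 for JQ1 and -0.06 for I-BET 762, and the median size of the change, 0.39 and 0.34, stood beside 0.43 and 0.33 over all genes.

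**Figure D1:**
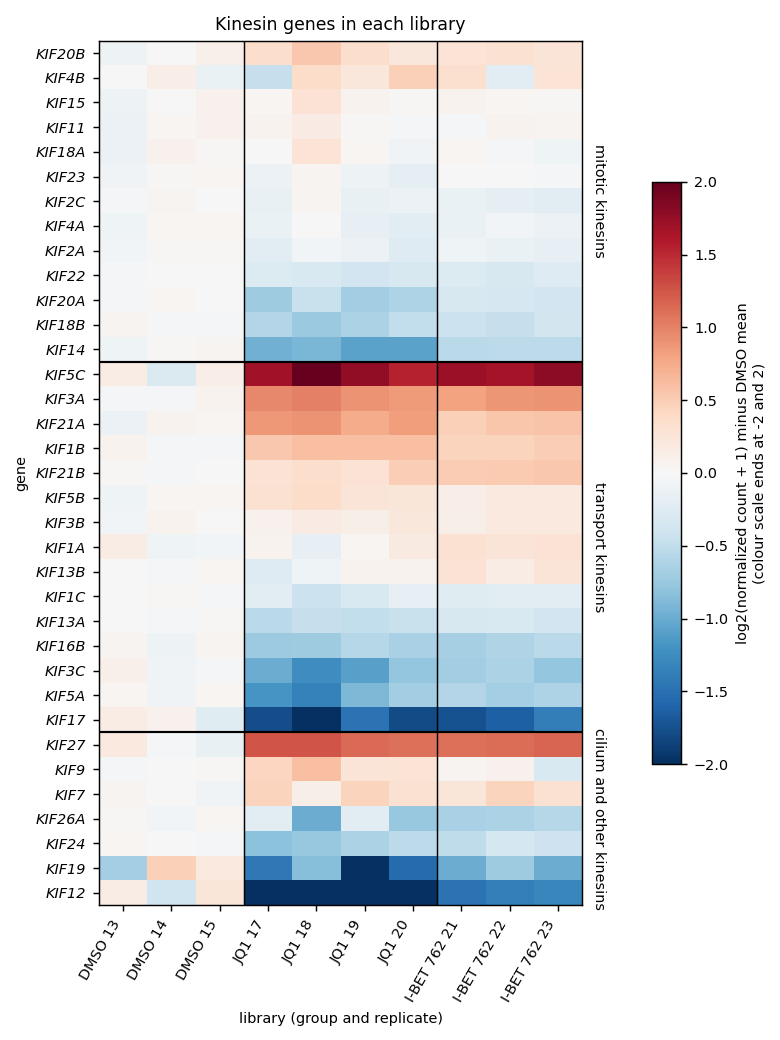
Colour gives log2(normalized count + 1) minus the DMSO mean for each of the 35 tested kinesin genes (rows, in 3 groups) in each of the 10 libraries (columns), with the scale ended at -2 and 2. Most mitotic rows are pale, whereas KIF5C, KIF3A and KIF27 are red and KIF17 and KIF12 are blue in all JQ1 and I-BET 762 libraries.

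Levels can be compared between genes only per length. On the scale of normalized counts per kilobase of annotated exon, the highest DMSO means were those of KIF5B, at 2987, KIF20A, at 2692, KIF2C, at 2584, and KIF11, at 2334. KIF5B is the ubiquitous heavy chain of conventional kinesin, and the other 3 act in mitosis. KIF25, KIF6 and KIF26B were the lowest. KIF6 ranged from 2.77 to 13.2 normalized counts over the 10 libraries, KIF25 from 0 to 6.09 and KIF26B from 0 to 1.97, and these 3 were not tested. Of the 75-base stretches of KIF26B exons, 94.0% have an exact copy on an alternate contig of the reference, so its low count is not shown to be low expression.

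**Figure D2:**
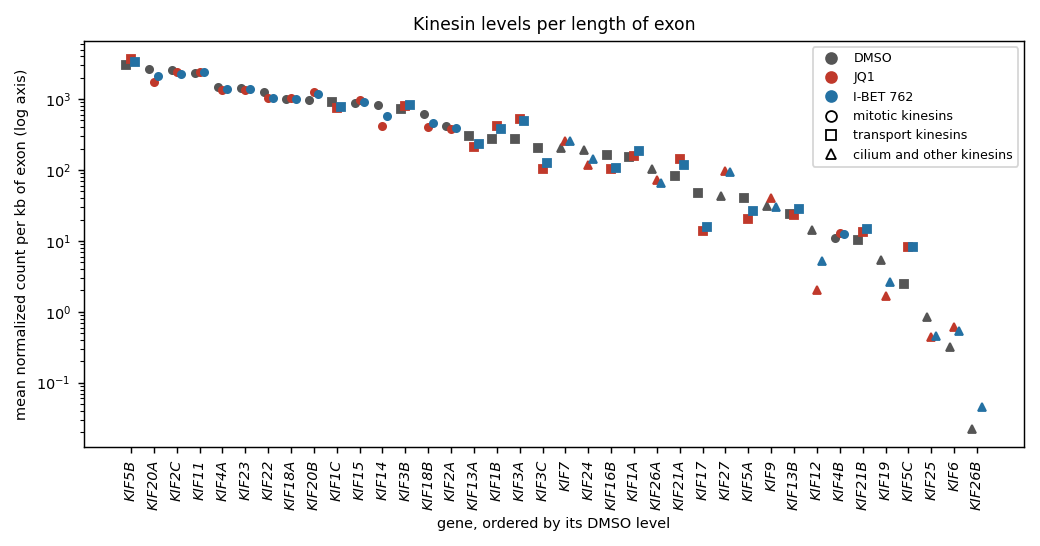
Points give the mean normalized count per kilobase of exon (log axis) in DMSO, JQ1 and I-BET 762 for all 38 kinesin genes, ordered by the DMSO mean, with marker shape for the gene group. KIF26B was at 0 in all JQ1 libraries and has no JQ1 point, and mitotic genes fill most of the upper part of the order.

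None of the 13 mitotic kinesins rose and 3 fell with JQ1, and none was called with I-BET 762, where 22.8% and 17.9% of all genes tested fell. The members that fell were KIF14, a cytokinesis kinesin that binds citron kinase, KIF20A, which brings Aurora B to the central spindle, and KIF18B, which shortens astral microtubules. Without JQ1 18, 2 of the 13 were called with JQ1, while 8 were lower by adjusted p alone and the median log2 fold change was -0.14. The shares over all genes without JQ1 18 are not given here. The group had a median log2 fold change of -0.09 with JQ1 and -0.10 with I-BET 762, and a median size of change of 0.15 and 0.13, beside 0.43 and 0.33 over all genes. By adjusted p alone, 7 of the 13 differed with JQ1, 1 higher and 6 lower, and 6 differed with I-BET 762, 1 higher and 5 lower, against 71.7% and 61.1% of all genes. With equal totals, 3 fell with JQ1 and 1 with I-BET 762, and 9 and 8 were lower by adjusted p alone. The group medians were then -0.28 and -0.20, beside -0.18 and -0.10 over all genes, so these counts depend in part on the scaling. The shares over all genes with equal totals are not given here.

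The sequences before the transcription starts of 7 mitotic kinesins are shown because cell-cycle genes of this kind often carry CCAAT boxes, bound by NF-Y, and a cell cycle homology region (CHR), bound by the DREAM and B-MYB complexes. KIF14, KIF18B and KIF20A fell with JQ1, whereas KIF11, KIF4A, KIF18A and KIF20B were not called. Each run holds the 150 bases before the RefSeq start in GRCh38.p14, written 5′ to 3′ on the strand of the gene, and capitals mark matches to CCAAT or to the CHR letters TTTGAA and TTCGAA on either strand.
KIF14 (chr1:200620752-200620901, minus strand): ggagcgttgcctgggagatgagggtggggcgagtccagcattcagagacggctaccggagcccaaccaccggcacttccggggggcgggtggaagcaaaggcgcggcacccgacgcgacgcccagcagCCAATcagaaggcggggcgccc
KIF18B (chr17:44947774-44947923, minus strand): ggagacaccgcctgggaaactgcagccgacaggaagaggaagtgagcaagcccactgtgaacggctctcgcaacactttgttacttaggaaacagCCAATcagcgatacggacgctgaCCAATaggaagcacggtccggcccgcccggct
KIF20A (chr5:138178962-138179111, plus strand): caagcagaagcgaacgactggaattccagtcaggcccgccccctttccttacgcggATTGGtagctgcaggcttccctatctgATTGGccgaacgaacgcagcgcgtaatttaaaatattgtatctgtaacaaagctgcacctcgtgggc
KIF11 (chr10:92592980-92593129, plus strand): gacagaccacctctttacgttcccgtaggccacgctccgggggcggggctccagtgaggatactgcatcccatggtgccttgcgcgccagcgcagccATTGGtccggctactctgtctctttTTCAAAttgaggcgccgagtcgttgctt
KIF4A (chrX:70289954-70290103, plus strand): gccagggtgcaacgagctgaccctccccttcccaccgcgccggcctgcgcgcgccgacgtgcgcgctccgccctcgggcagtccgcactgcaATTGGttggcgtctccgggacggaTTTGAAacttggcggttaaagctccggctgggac
KIF18A (chr11:28108157-28108306, minus strand): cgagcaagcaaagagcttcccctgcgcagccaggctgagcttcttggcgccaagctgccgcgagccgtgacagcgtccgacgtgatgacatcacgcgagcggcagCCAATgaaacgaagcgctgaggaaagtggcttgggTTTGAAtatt
KIF20B (chr10:89701440-89701589, plus strand): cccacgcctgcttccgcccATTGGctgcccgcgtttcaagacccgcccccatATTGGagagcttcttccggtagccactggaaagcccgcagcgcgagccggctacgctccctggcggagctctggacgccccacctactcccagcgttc

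All 7 runs held at least 1 CCAAT match. The pair of motifs stood close together in KIF11, with CCAAT at -53 and CHR at -28 from the start, and likewise in KIF4A, at -58 and -34, and in KIF18A, at -45 and -10. In KIF14 and KIF18B the CHR match lay just after the start, at 2 and 3, and outside the bases shown. KIF20B, which was not called, likewise had its CHR matches after the start, at 25 and 31. KIF20A had CCAAT at -94 and -67 and no CHR match in its window. Over windows from 250 bases before to 50 after the start, on both strands, 11 of 14 windows of mitotic kinesins (78.6%) held a CHR match, against 16.4% of 35116 RefSeq promoters, and 10 (71.4%) held CCAAT, against 34.6%. In the 250 bases before the start alone, 7 of 14 (50%) held a CHR match, against 14.3% of all promoters. The CHR letters were found in 1 of 17 transport windows (5.9%) and 1 of 10 cilium and other windows (10%), and CCAAT in 5 (29.4%) and 4 (40.0%). RefSeq windows were found for 32 of the 38 members, some with several starts, and a match is a description of letters and not a bound site. Both motifs were present in members that fell and in members that were not called.

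KIF14 had 5753, 6184 and 6297 normalized counts in DMSO, 3133, 3207, 2902 and 2891 in JQ1, and 4172, 4208 and 4231 in I-BET 762. The 3 groups did not overlap, with DMSO highest and JQ1 lowest. With JQ1 the log2 fold change was -1.0 (SE 0.05, adjusted p = 6.03e-11), a 2-fold lower level, and -0.53 with I-BET 762 (SE 0.05, adjusted p = 4.69e-07), which is under 1.5-fold but was -0.63 and called with equal totals. KIF14 was also lower in JQ1 than in I-BET 762, by a log2 difference of -0.47 (SE 0.05, adjusted p = 9.39e-06).

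KIF20A had 10126, 10610 and 10371 normalized counts in DMSO, 6335, 7609, 6369 and 6782 in JQ1, and 8299, 8183 and 7977 in I-BET 762. Again no group overlapped another. With JQ1 its log2 fold change was -0.62 (SE 0.06, adjusted p = 8.66e-08) and -0.35 with I-BET 762 (SE 0.06, adjusted p = 0.000151), and JQ1 lay below I-BET 762 by -0.27 (adjusted p = 0.00275). KIF20A overlaps genes on the opposite strand, and the strand setting used for counting is not given in the sources used here.

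KIF18B had 3011, 2862 and 2845 normalized counts in DMSO, 1925, 1734, 1868 and 2055 in JQ1, and 2153, 2105 and 2246 in I-BET 762. The order of the groups was that of KIF14. With JQ1 the log2 fold change was -0.62 (SE 0.06, adjusted p = 7.73e-08), which came to -0.58 and fell short of 1.5-fold without JQ1 18, and it was -0.42 with I-BET 762 (SE 0.06, adjusted p = 2.01e-05).

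**Figure D3:**
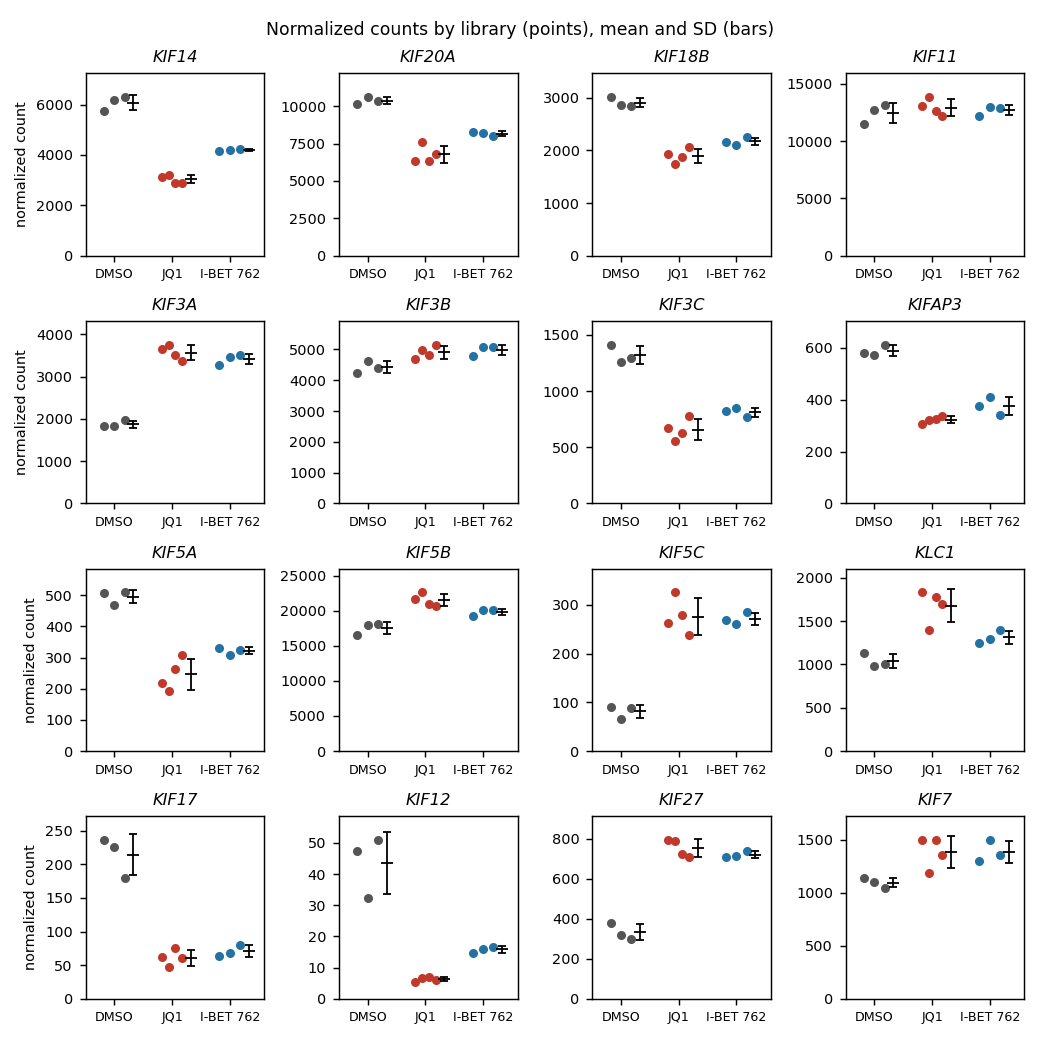
Each panel plots the normalized count of 1 gene in every library (points, from 0) with the group mean and SD beside them (3 DMSO, 4 JQ1 and 3 I-BET 762 libraries). KIF14, KIF20A and KIF18B step down from DMSO to I-BET 762 to JQ1 while KIF11 overlaps, and KIF3A and KIF5C rise where KIF3C, KIFAP3 and KIF5A fall.

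KIF11, the plus-end motor that separates the spindle poles and the target of several antimitotic compounds, had 11456, 12680 and 13130 normalized counts in DMSO, 13034, 13845, 12672 and 12153 in JQ1, and 12224, 13008 and 12910 in I-BET 762. The groups overlapped. With JQ1 its log2 fold change was 0.06 (95% interval -0.06 to 0.18, adjusted p = 0.365) and 0.04 with I-BET 762 (-0.09 to 0.16, adjusted p = 0.63), and with equal totals the JQ1 value was -0.13 (adjusted p = 0.0203), still under 1.5-fold.

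KIF18A, which damps chromosome movements at the metaphase plate, had 4194 to 4846 normalized counts in DMSO, 4337 to 5485 in JQ1 and 4286 to 4692 in I-BET 762. With JQ1 its log2 fold change was 0.06 (95% interval -0.10 to 0.21, adjusted p = 0.486) and -0.02 with I-BET 762 (-0.18 to 0.14, adjusted p = 0.832). The groups overlapped. The JQ1 value came to -0.01 without JQ1 18 and -0.13 with equal totals, neither past the adjusted p.

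KIF23, the motor subunit of centralspindlin in cytokinesis, had 8922 to 9577 normalized counts in DMSO, 8280 to 9752 in JQ1 and 9096 to 9399 in I-BET 762. The groups overlapped, and the log2 fold changes were -0.08 (95% interval -0.20 to 0.03, adjusted p = 0.189) and -0.01 (-0.14 to 0.11, adjusted p = 0.846). KIF2C, which depolymerises microtubules at kinetochores, had 9153 to 9760 in DMSO, 8483 to 9803 in JQ1 and 8106 to 8597 in I-BET 762. With JQ1 its log2 fold change was -0.09 (adjusted p = 0.143) and -0.17 with I-BET 762 (adjusted p = 0.0154), where the I-BET 762 libraries all lay below DMSO. KIF4A, a chromokinesin that works with PRC1 on the central spindle, had 6411 to 7012 in DMSO, 5886 to 6776 in JQ1 and 6219 to 6518 in I-BET 762, with log2 fold changes of -0.13 (adjusted p = 0.0403) and -0.10 (adjusted p = 0.128).

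KIF20B, a further kinesin of cytokinesis, was the mitotic member that was higher with both inhibitors by adjusted p, at 0.36 with JQ1 (adjusted p = 0.000101) and 0.28 with I-BET 762 (adjusted p = 0.0026) on the log2 fold change scale, both under 1.5-fold. KIF22, a chromokinesin, was lower in all treated libraries, at -0.32 and -0.29. The others, KIF2A, KIF4B and KIF15, lay between -0.17 and 0.15 in log2 fold change. Summed over the 13 genes, mitotic kinesins took 84044 to 90322 normalized counts in DMSO, 75735 to 86531 in JQ1 and 80506 to 81802 in I-BET 762, and the highest JQ1 value was that of JQ1 18.

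Among 18 partners of the mitotic kinesins, none rose, 4 fell with JQ1 and 1 fell with I-BET 762, where 22.8% and 17.9% of all genes tested fell. By adjusted p alone 14 partners were lower with each inhibitor, against 71.7% and 61.1% of all genes that differed in either direction. With equal totals, 8 partners fell with JQ1 and 3 with I-BET 762, and 18 and 15 were lower by adjusted p alone. The shares over all genes with equal totals are not given here. The median log2 fold change of the partners came to -0.35 for JQ1 and -0.28 for I-BET 762, beside 0.01 and -0.00 over all genes. AURKA, the spindle pole kinase, fell with both, by -1.10 and -0.91. TPX2, which carries KIF15 and AURKA to spindle microtubules, went from 14790 to 15879 normalized counts in DMSO to 8770 to 9379 in JQ1 (log2 fold change -0.77, adjusted p = 2.64e-10) and 10290 to 10762 in I-BET 762 (-0.56, adjusted p = 6.36e-08, under 1.5-fold). PRC1, which bundles the central spindle, fell by 0.83 and RACGAP1, the partner of KIF23, fell by 0.68 on the log2 scale with JQ1. PRC1 was read at only 55.8 to 130 normalized counts over all libraries, and it overlaps other annotated genes on its own strand. ANLN, CDK1, HMMR and NUSAP1 were not past the adjusted p with JQ1.

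Of the 15 transport kinesins, 4 rose and 4 fell with JQ1, and 2 rose and 4 fell with I-BET 762. Beside these counts, 13.3% of all genes tested rose and 22.8% fell with JQ1, and 8.96% rose and 17.9% fell with I-BET 762. The members that rose were KIF3A, KIF5C, KIF1B and KIF21A, the latter pair called with JQ1 only, and those that fell with both were KIF3C, KIF5A, KIF16B and KIF17. Their median size of change came to 0.59 for JQ1 and 0.52 for I-BET 762, beside 0.43 and 0.33 over all genes, while the median signed change was 0.03 and 0.18. By adjusted p alone, 7 of the 15 were higher and 6 lower with JQ1, and 8 higher and 6 lower with I-BET 762. Over all genes tested, 71.7% and 61.1% differed. With equal totals, 5 were higher and 7 lower with JQ1, and 5 higher and 6 lower with I-BET 762, so some rises by adjusted p alone depended on the scaling. The shares over all genes with equal totals are not given here. Changes of opposite sign occurred within the kinesin-2, kinesin-1 and kinesin-3 families.

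In the kinesin-2 family, KIF3A pairs with KIF3B or KIF3C, and KIFAP3 joins the motors to cargo, among others in transport along the cilium. KIF3A had 1821, 1822 and 1971 normalized counts in DMSO, 3646, 3751, 3498 and 3369 in JQ1, and 3278, 3458 and 3502 in I-BET 762. All treated libraries lay above DMSO, with log2 fold changes of 0.93 (SE 0.05, adjusted p = 1.92e-10) and 0.87 (SE 0.06, adjusted p = 2.65e-09). The inhibitors differed by 0.06 (95% interval -0.05 to 0.17), and that sign turned with equal totals.

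KIF3C had 1412, 1260 and 1298 normalized counts in DMSO, 667, 559, 623 and 775 in JQ1, and 819, 849 and 769 in I-BET 762. All treated libraries were below DMSO, and JQ1 and I-BET 762 overlapped. The log2 fold changes were -1.02 (SE 0.09, adjusted p = 4.41e-08) and -0.70 (SE 0.10, adjusted p = 1.1e-05). KIF3B, at 4241 to 4625 in DMSO, 4674 to 5153 in JQ1 and 4792 to 5084 in I-BET 762, was higher by less than 1.5-fold, with log2 fold changes of 0.15 (adjusted p = 0.013) and 0.17 (adjusted p = 0.00977). KIFAP3 fell with both, from 572 to 612 in DMSO to 305 to 338 in JQ1 (log2 fold change -0.86, adjusted p = 8.42e-08) and 341 to 411 in I-BET 762 (-0.65, adjusted p = 7.76e-06).

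Per kilobase of exon, KIF3A made up 22.7% ± 0.979 (SD, n = 3) of the KIF3A, KIF3B and KIF3C level in DMSO, 36.5% ± 1.94 (SD, n = 4) in JQ1 and 34.6% ± 0.306 (SD, n = 3) in I-BET 762. KIF3C made up 17.2% ± 1.34, 7.20% ± 0.951 and 8.82% ± 0.532 in the same groups and numbers of libraries. KIF3B remained the largest share, at 60.1%, 56.3% and 56.6%. These shares come from counts within each library, so a common scaling of a library leaves them as they are.

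In the kinesin-1 family, KIF5B is the ubiquitous heavy chain, and KIF5A and KIF5C are best known from neurons. KIF5C had 90.1, 66.6 and 89.2 normalized counts in DMSO, 262, 325, 279 and 237 in JQ1, and 269, 260 and 284 in I-BET 762. Every treated library was above every DMSO library, and the inhibitors overlapped. The log2 fold changes were 1.74 (SE 0.13, adjusted p = 5.81e-09) and 1.73 (SE 0.14, adjusted p = 3.27e-08), and the difference between the inhibitors was 0.02 (95% interval -0.26 to 0.29). Of the 75-base stretches of KIF5C exons, 81.1% have an exact copy on an alternate contig of the reference, so its count depends on whether the authors aligned to such contigs, which is not given in the sources used here.

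KIF5A had 508, 471 and 510 normalized counts in DMSO, 219, 194, 265 and 307 in JQ1, and 332, 310 and 324 in I-BET 762. The groups did not overlap. The log2 fold changes were -1.03 (SE 0.12, adjusted p = 1.72e-06) and -0.62 (SE 0.13, adjusted p = 0.000751). KIF5A overlaps DCTN2 on the opposite strand, and DCTN2 changed by -0.57 and -0.37.

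KIF5B had 16560, 17959 and 18040 normalized counts in DMSO, 21644, 22607, 21016 and 20601 in JQ1, and 19248, 20027 and 20052 in I-BET 762. All treated libraries lay above DMSO, with log2 fold changes under 1.5-fold at 0.29 (SE 0.05, adjusted p = 5.83e-05) and 0.18 (SE 0.05, adjusted p = 0.00878). KIF5B remained 98.6% ± 0.120 (SD, n = 3) of the KIF5 level per kilobase in DMSO, 99.2% ± 0.117 (SD, n = 4) in JQ1 and 99.0% ± 0.0499 (SD, n = 3) in I-BET 762. KIF5A went from 1.34% to 0.549% and 0.772% of that level, and KIF5C from 0.0819% to 0.225% and 0.240%, so both stayed minor on this scale. The KIF5C share carries the limit of its count given above. It also depends on the annotated exon length, which was 33151 bases for KIF5C and 5866 for KIF5B.

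Of the kinesin-3 members, KIF1B, which carries mitochondria and synaptic vesicle precursors, had 5455, 5068 and 5107 normalized counts in DMSO, 7583, 7889, 7930 and 7861 in JQ1, and 7095, 7093 and 7360 in I-BET 762. The groups did not overlap, and the log2 fold changes were 0.59 (SE 0.04, adjusted p = 5.75e-09) and 0.46 (SE 0.05, adjusted p = 3.86e-07). The JQ1 value lay at the 1.5-fold line and was 0.40 with equal totals, below it. KIF16B, which moves early endosomes, had 1297, 1170 and 1296 in DMSO, 756, 767, 840 and 802 in JQ1, and 789, 823 and 864 in I-BET 762. All treated libraries were below DMSO, with log2 fold changes of -0.66 (SE 0.06, adjusted p = 1.2e-07) and -0.60 (SE 0.07, adjusted p = 1.43e-06). Without DMSO 13, DMSO 15 or I-BET 762 21 the I-BET 762 value lay between -0.58 and -0.57, short of 1.5-fold. KIF13A was lower in every treated library by less than 1.5-fold, at -0.49 and -0.34, and KIF1C likewise, at -0.28 and -0.23. KIF1A changed by 0.03 with JQ1 (adjusted p = 0.724) and was higher with I-BET 762 by less than 1.5-fold, at 0.29 (adjusted p = 0.00499), with all I-BET 762 libraries above DMSO. KIF13B was not past the adjusted p with either inhibitor.

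KIF17, a homodimeric kinesin-2 of dendrites and cilia, had 236, 227 and 179 normalized counts in DMSO, 61.5, 46.8, 76.0 and 60.9 in JQ1, and 63.0, 68.2 and 80.7 in I-BET 762. Both inhibitor groups lay below DMSO and overlapped each other. The log2 fold changes were -1.80 (SE 0.17, adjusted p = 9.9e-08) and -1.58 (SE 0.18, adjusted p = 1.66e-06), a 3.48-fold and 3-fold lower level. KIF21A, a transport kinesin that also limits microtubule growth, had 759, 859 and 845 in DMSO, 1504, 1528, 1380 and 1465 in JQ1, and 1138, 1203 and 1225 in I-BET 762. The groups did not overlap, with log2 fold changes of 0.84 (SE 0.06, adjusted p = 4.56e-09) and 0.53 (SE 0.07, adjusted p = 3.43e-06). Its paralog KIF21B was higher by 0.35 and 0.52, both under 1.5-fold.

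Of 19 light chains and adaptors of transport kinesins, 6 rose and 4 fell with JQ1, and 1 rose and 4 fell with I-BET 762. Over all genes tested, 13.3% rose and 22.8% fell with JQ1, and 8.96% rose and 17.9% fell with I-BET 762. KLC1, the main light chain of conventional kinesin in many cells, had 980 to 1130 normalized counts in DMSO, 1399 to 1831 in JQ1 (log2 fold change 0.68, adjusted p = 2.1e-06) and 1244 to 1398 in I-BET 762 (0.33, adjusted p = 0.00425). KLC3 and KLC4 fell with both inhibitors, at -1.59 and -1.29 with JQ1 and -1.38 and -1.11 with I-BET 762. MAPK8IP2, a scaffold that binds light chains, fell most, at -2.22 and -2.08, whereas the scaffolds SPAG9 and MAPK8IP3 rose with JQ1, at 0.84 and 0.62. HAP1, an adaptor of huntingtin, rose with both, at 0.97 and 0.91. RHOT2, which links mitochondria to motors, rose by 0.65 with JQ1. Of the 15 tested genes of cytoplasmic dynein and dynactin, the motor that moves the other way, none fell, 3 rose with JQ1 (DYNLL2 at 1.11, DYNC1LI1 at 0.72 and DYNLT1 at 0.60) and DYNLL2 rose with I-BET 762, at 0.86. By adjusted p alone, 6 of these 15 were higher and 5 lower with JQ1, and 6 higher and 3 lower with I-BET 762, among the lower ones DCTN2 and DYNC1I2, the latter at -0.55 and -0.44. Over all genes tested, 71.7% differed in either direction with JQ1 and 61.1% with I-BET 762, near the shares of these 15.

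**Figure D4:**
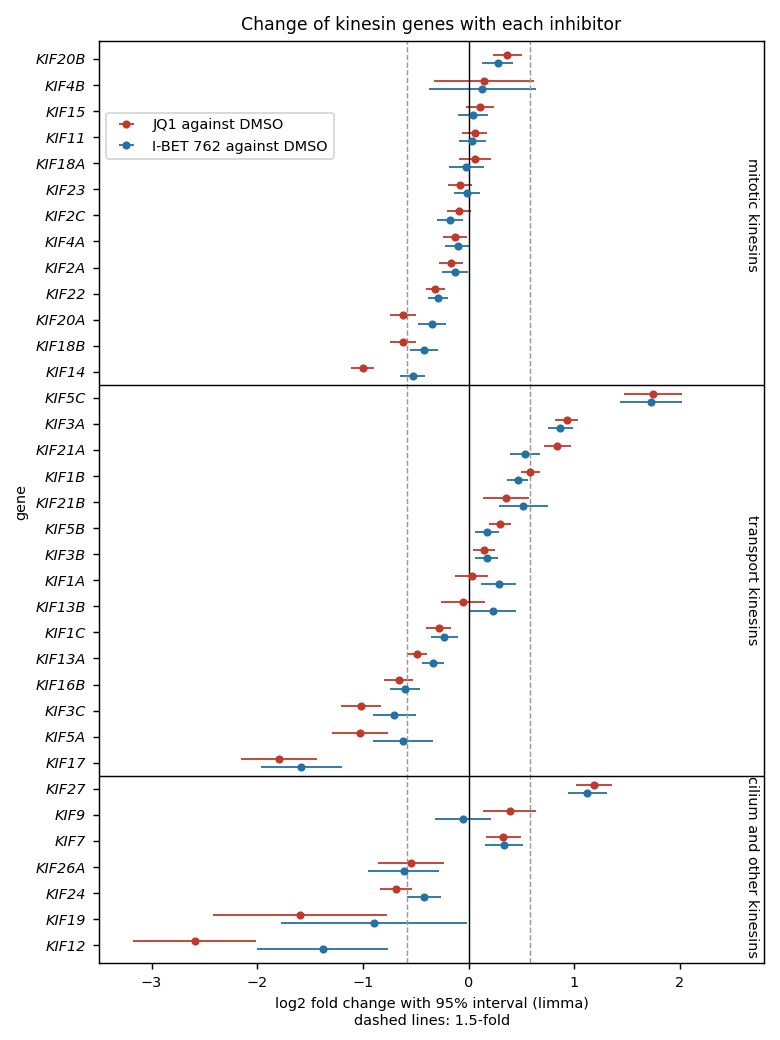
Points give the log2 fold change of each tested kinesin gene with its 95% interval from limma, for JQ1 against DMSO and I-BET 762 against DMSO, and dashed lines mark 1.5-fold. No member was called in opposite directions by the 2 inhibitors, and the points of the mitotic members other than KIF14, KIF18B and KIF20A lie between the dashed lines.

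Of the 10 cilium and other kinesins, 7 were tested, and 1 rose and 3 fell with JQ1, while 1 rose and 2 fell with I-BET 762. The shares over all genes tested were 13.3% higher and 22.8% lower with JQ1, and 8.96% higher and 17.9% lower with I-BET 762. KIF27, a ciliary relative of KIF7, had 377, 320 and 298 normalized counts in DMSO, 793, 788, 725 and 708 in JQ1, and 707, 715 and 740 in I-BET 762. All treated libraries lay above DMSO, with log2 fold changes of 1.19 (SE 0.08, adjusted p = 2.16e-09) and 1.12 (SE 0.09, adjusted p = 2.12e-08). Of its 75-base exon stretches, 24.5% have an exact copy elsewhere on the primary chromosomes, so part of its reads may be shared.

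KIF12, a kinesin best known from kidney and bile duct epithelium, had 47.5, 32.4 and 51.0 normalized counts in DMSO, 5.49, 6.53, 7.0 and 6.09 in JQ1, and 14.8, 16.0 and 16.7 in I-BET 762. The 3 groups did not overlap. On the log2(normalized count + 1) scale, which understates the change of low genes, the log2 fold changes were -2.59 (SE 0.27, adjusted p = 3.61e-07) and -1.38 (SE 0.29, adjusted p = 0.000701). Of 4 epithelial markers, KRT8, KRT18 and EPCAM fell with JQ1, KRT8 and EPCAM also with I-BET 762, and CDH1 was under the filter. Over all genes tested, 22.8% fell with JQ1 and 17.9% with I-BET 762, and 5 of 6 tested smooth muscle markers fell with each inhibitor. EPCAM ranged from 37.8 to 42.8 normalized counts in DMSO, 12.2 to 19.8 in JQ1 and 12.8 to 35.1 in I-BET 762. The part of the epithelial markers in the KIF12 result was not tested.

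KIF24, which restrains cilium formation at the mother centriole, had 1208 to 1263 normalized counts in DMSO, 700 to 860 in JQ1 and 870 to 966 in I-BET 762. The groups did not overlap, with log2 fold changes of -0.69 (SE 0.07, adjusted p = 3.31e-07) and -0.42 (SE 0.08, adjusted p = 0.00018). As with KIF7 and KIF9, a gene on the opposite strand overlaps KIF24. KIF19, which trims ciliary length, had 17.4, 39.8 and 32.8 in DMSO, 9.89, 15.2, 4.0 and 9.13 in JQ1, and 13.8, 17.0 and 13.8 in I-BET 762. The values were low and spread, with -1.59 for JQ1 (SE 0.39, adjusted p = 0.0016) and -0.90 for I-BET 762 (SE 0.41, adjusted p = 0.0721), which was not called. The I-BET 762 value was called with a pseudocount of 5, with equal totals, with only the 2 groups fitted (adjusted p = 0.0188), in both limma-voom fits, and without DMSO 13 or JQ1 19, at adjusted p from 0.0188 to 0.0491.

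KIF26A, an atypical kinesin without ATPase activity, had 728, 690 and 734 normalized counts in DMSO, 621, 359, 617 and 424 in JQ1, and 459, 463 and 482 in I-BET 762. The JQ1 libraries fell into a pair near 620 and a lower pair, so JQ1 spread more than I-BET 762. The log2 fold changes were -0.54 with JQ1 (SE 0.15, adjusted p = 0.00357), under 1.5-fold but -0.73 and called with equal totals, and -0.62 with I-BET 762 (SE 0.16, adjusted p = 0.00308).

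KIF7, which sits at the cilium tip and regulates GLI proteins in Hedgehog signalling, had 1138, 1103 and 1049 normalized counts in DMSO, 1499, 1183, 1499 and 1359 in JQ1, and 1300, 1498 and 1355 in I-BET 762. All treated libraries lay above DMSO, by a log2 fold change of 0.33 with each inhibitor (adjusted p = 0.00143 and 0.00288), under 1.5-fold. Of 6 Hedgehog genes beside it, 5 fell with JQ1 and 4 with I-BET 762, where 22.8% and 17.9% of all genes tested fell. GLI1, a transcription factor and target of the pathway, went from 395 to 488 in DMSO to 14.1 to 51.7 in JQ1 (log2 fold change -3.99, adjusted p = 1.12e-08) and 28.5 to 42.3 in I-BET 762 (-3.59, adjusted p = 1.71e-07). SMO, PTCH1 and GLI2 fell with both, and SUFU changed by -0.18 and -0.08. GLI3 fell with JQ1, at -0.76 (adjusted p = 0.000227), and was lower with I-BET 762 by less than 1.5-fold, at -0.45 (adjusted p = 0.0224).

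The 2 inhibitors were given at the same dose and time, and they were compared directly for the 35 tested members, with p-values adjusted over all genes. KIF12 was the member called, lower in JQ1 than in I-BET 762 by a log2 difference of -1.21 (95% interval -1.79 to -0.63, adjusted p = 0.00408), where 3.59% of all genes tested were lower and 1.73% higher. By adjusted p alone, 13 members differed, against 27.3% of all genes, 3 of them higher in JQ1 (KIF9, KIF21A and KIF1B) and 10 lower. The largest of these below 1.5-fold were KIF14, at -0.47, and KIF9, at 0.44 (adjusted p = 0.0111). KIF3C was at -0.32 (adjusted p = 0.016) and KIF5A at -0.41 (adjusted p = 0.0236). For the other 22 members the difference was not past the adjusted p, which does not show that the inhibitors act alike. The interval for KIF17 ran from -0.57 to 0.15, that for KIF27 from -0.11 to 0.23 and that for KIF11 from -0.10 to 0.14.

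Of 5 kinesins that carry no KIF number, KIFC3, a minus-end motor at cell junctions and centrosomes, fell with both inhibitors, from 1380 to 1468 normalized counts in DMSO to 683 to 823 in JQ1 (log2 fold change -0.96, adjusted p = 3.04e-09) and 758 to 821 in I-BET 762 (-0.86, adjusted p = 5.25e-08). KIFC2 rose with I-BET 762, at 0.62. CENPE, the kinetochore motor, was higher by less than 1.5-fold, from 11062 to 12461 in DMSO to 12990 to 16473 in JQ1 and 13203 to 13573 in I-BET 762. KIFC1, the minus-end motor that clusters spindle poles, was read at 9.10 to 15.5 in DMSO, 3.04 to 17.4 in JQ1 and 14.8, 25.1 and 127 in I-BET 762. All of its exon stretches have an exact copy on alternate contigs, and its call with I-BET 762 (log2 fold change 1.65, adjusted p = 0.039) rests on a spread of that size.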

How the data were processed

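The deposited table holds log2 values for 22784 gene symbols in 10 libraries. Per the labels, strand-specific total RNA libraries were sequenced, and the authors' processing notes name FastQC 0.73, Trimmomatic, HISAT2 2.2.1, featureCounts 2.0.3, DESeq2 and the build hg38. Outlier samples were excluded by the authors, per the paper's methods. The authors' values are log2(normalized count + 1), and dividing the normalized counts by each library's smallest step gave whole reads (within 0.02 reads) for 99.74% to 99.77% of values, with authors' scaling factors of 0.91 to 1.099. A count of 3 reads came to 2.73 to 3.30 normalized counts. Per-library totals, shares and levels per kilobase were computed from these counts, with exon lengths from the reference annotation.

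A limma model (version 3.58.1, under R 4.3.3, with an intensity trend) was fitted to the deposited log2 values of all 10 libraries, since the table holds no raw counts, and p-values were adjusted by Benjamini-Hochberg over 14839 genes with at least 10 normalized counts in at least 3 libraries. The script was tested on simulated data. Calls needed an adjusted p under 0.05 and a change over 1.5-fold. Standard errors are those of limma. No batch is given in the labels.

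The members, gene lists and tests were chosen with earlier results of these data known. Members called in any comparison were named, as were KIF11, KIF23, KIF20A, KIF2C, KIF4A, KIF18A, KIF5B, KIF1B, KIF3A and KIF7, and the called genes of related lists with KIFC1, CENPE, PRC1, TPX2, KLC1 and GLI1. A called gene of the light chain and adaptor list is not reported here. Other members are given by range, by count or, chosen after their values were seen, by name. Alternatives changed the pseudocount, filter, scaling, trend, groups fitted, thresholds and libraries, or used limma-voom on the recovered reads. The voom fit with the authors' scaling factors was chosen after seeing the data. Exact copies were sought for non-overlapping 75-base stretches of member exons. Promoter windows are from RefSeq (GRCh38.p14). The closing section gives what changed.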

Additional observations from a re-analysis of the deposited data

Results flagged for a closer look

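Among the 35 tested members, 2 had 1 JQ1 library far from the other 3, with a gap to the nearest that, over the whole range, passed Dixon's critical value for 4 samples. KIF15 had 5793 normalized counts in JQ1 18, where the other JQ1 libraries had 4804 to 4963, a ratio of 0.839. KIF2C had 9803 in JQ1 18, where the others had 8483 to 8680, a ratio of 0.851. Chance alone flags about 1 in 20 groups, and 2 flags among 35 members are near that rate. Both fall on mitotic kinesins of the same library, whose values need not be independent of each other.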

How the results depend on the processing

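No paired analysis was possible because the libraries of the 3 groups carry different replicate numbers. Without a fold threshold 27 members were called with JQ1 (11 higher, 16 lower), 25 with I-BET 762 (11 higher, 14 lower) and 13 between the inhibitors (3 higher, 10 lower), and over 2-fold 8 and 4 were called with JQ1 and I-BET 762. With a mean of at least 100 normalized counts required, 0 members differed between the inhibitors, since KIF12 was no longer tested. With 1 library left out at a time, calls numbered 13 to 16 with JQ1, 8 to 10 with I-BET 762 and 1 between the inhibitors. Without JQ1 18, 13 were called with JQ1. With equal totals 4 rose and 12 fell with JQ1, and without the members that have exact copies 11 remained with JQ1 and 6 with I-BET 762, none of the latter higher. A single copied stretch was enough to leave a member out, and KIF3A was left out for 1 of 83 stretches (1.2%).

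For the 23 named members, 1306 of 1374 alternative values kept their direction and side of the threshold, 12 lost and 14 gained a call, and 42 changed sign, all of them uncalled. For JQ1, KIF11 came to -0.13 with equal totals, -0.0063 with equal upper quartiles and -0.13 with limma-voom on recovered reads, and KIF18A to -0.13, -0.0069 and -0.13. For I-BET 762, KIF11 came to -0.061, -0.0011 and -0.061 under the same settings. Between the inhibitors, equal totals and voom gave -0.066 and -0.066 for KIF11, -0.011 and -0.011 for KIF18A, -0.018 and -0.021 for KIF26A, -0.026 and -0.028 for KIF27, -0.0049 and -0.0049 for KIF2C, -0.026 and -0.026 for KIF3A, and -0.071 and -0.071 for KIF5C, and upper quartiles gave -0.0052 for KIF11 and -0.011 for KIF5C. With 1 library left out, the range of the log2 value with JQ1 was -0.013 to 0.10 for KIF18A. The range for I-BET 762 was -0.022 to 0.077 for KIF11, -0.080 to 0.024 for KIF18A, -0.047 to 0.0041 for KIF23. The range for the difference between the inhibitors was -0.011 to 0.052 for KIF11, -0.041 to 0.22 for KIF26A, -0.067 to 0.00054 for KIF4A, -0.065 to 0.086 for KIF5C, -0.047 to 0.070 for KIF7.

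KIF1B lost its JQ1 call with equal totals, upper quartiles, voom on recovered reads and without DMSO 14, DMSO 15, JQ1 18, JQ1 19 or JQ1 20, where it ranged from 0.40 to 0.58. KIF6, KIF25 and KIF26B were too low in these libraries to be tested.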
